A study of Rattus norvegicus with 9 samples.

Results

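The genes of the inflammatory caspases and of the interleukin-1 (IL-1) pathway were followed in rat aortic smooth muscle cells (RASMC) deprived of Na+,K+-ATPase activity. The list holds 10 genes, namely the caspases *Casp1*, *Casp4* and *Casp12*, the inflammasome genes *Nlrp3* and *Pycard*, the ligands *Il1b*, *Il18* and *Il33*, and the receptors *Il1r1* and *Il1rl1*. A gene was represented by a probe set that the array annotation ties to a single gene symbol, chosen by the highest mean over all 9 arrays where several exist. This rule gave 1 probe set for 9 of the 10 genes, out of 14324 genes with such a probe set in the series. *Nlrp3* was not matched to a single-symbol probe set and was not analysed here. The list was drawn up with earlier results on these arrays in view, and the large differences of *Casp4* in particular were known. *Casp4* is therefore described without a test, and counts of changed genes are given over the other 8.

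RASMC from Lonza, used at low passage, were made quiescent for 24 hr in 0.2% serum, rinsed in DMEM without K+, and kept for a further 6 hr in 1 of 3 media. The K+-free cells stayed in DMEM lacking K+, which stops the Na+,K+-ATPase by taking away the ion it carries inward. The ouabain cells received DMEM with 3 mM ouabain, a cardiac glycoside that binds the pump's α subunit, and the control cells received complete DMEM. Each condition has 3 Affymetrix Rat Gene 1.0 ST arrays from 3 independent experiments, so all groups share the serum withdrawal and the K+-free rinse. They are a purchased culture held in low serum, and no source names leukocytes or other added cells.

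Inflammasomes are cytosolic complexes in which a sensor such as NLRP3 recruits the adaptor ASC, the product of *Pycard*, which in turn recruits caspase-1. Caspase-1 matures IL-1β and IL-18 and cleaves gasdermin D, whose fragment forms pores in the plasma membrane. In mouse macrophages the product of *Casp4* (known there as caspase-11) senses bacterial lipopolysaccharide in the cytosol, and loss of cellular K+ is a well known trigger of NLRP3. IL-1β signals through IL1R1 and IL-33 through ST2, the product of *Il1rl1*, and smooth muscle cells of arteries are known to respond to IL-1.

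To give the regulatory context of these genes, the RefSeq promoter windows of the rat GRCr8 assembly, 250 bases before to 50 bases after each start, were searched for a κB-type motif, written GGGNNNNNCC, and an AP-1-type motif, written TGANTCA, on both strands. All 10 genes have a window. The κB-type letters were found in the windows of 3 of the 10 genes, against 47.3% of all 33469 promoters, and the AP-1-type letters in 1 of 10, against 7.33% of all promoters. All matches, in *Casp1*, *Il18* and *Il1r1*, are shown with 10 bases on either side and the motif in capitals, save for 1 overlapping match named below. Positions count from the annotated start, and all 3 genes lie on the plus strand. A match in *Casp1* was followed by another on the minus strand, shifted by 1 base and overlapping it, which is not shown.
Casp1 κB-type, both strands, at -148, chr8:10872672-10872701: atcattatcaGGGTTGACCCcttggcactt
Il18 κB-type, plus strand, at -31, chr8:59802031-59802060: ctctggttatGGGTTAGACCtgactctcaa
Il18 AP-1-type, both strands, at 5, chr8:59802067-59802093: tcttctcttcTGAATCAgctcttctac
Il1r1 κB-type, minus strand, at -135, chr9:50034238-50034267: cagagaccctGGAATGCCCCgcagggatgt
The genes that carry a match were a gene that rose (*Il1r1*) and dim genes that did not pass the test (*Casp1* and *Il18*). The windows of all other members lacked these letters. These were *Casp4*, *Casp12* and *Pycard*, which were lower in treated cells, *Il1b*, *Il33* and *Il1rl1*, which were not called, and *Nlrp3*, which was not measured. A link between motif and direction was not tested.

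Signals were deposited on a log2 scale for 27342 probe sets, with array medians between 6.76 and 6.80 and correlations between replicates of 0.996 to 0.998. A difference was called when its limma p-value, adjusted by Benjamini-Hochberg over all probe sets, was below 0.05 and its fold was above 1.2. Of the smooth muscle markers 7 of 8 were measured, with an average log2 signal of 9.87 to 9.91 in the K+-free arrays, 9.75 to 9.87 in the ouabain arrays and 10.20 to 10.26 in the control arrays, and only *Des* lay under the median of its array throughout. Of these 7, 3 were called lower in K+-free medium and 4 in ouabain, the largest being *Lmod1* at -1.48 in K+-free medium and -1.61 in ouabain. The 12 macrophage and leukocyte markers averaged 6.13 to 6.17 in K+-free, 6.23 to 6.29 in ouabain and 5.85 to 5.89 in control arrays, with 10 of 12, *Ptprc* among them, under the array median on every array. Of these 12 markers, 3 were called higher in K+-free medium and 4 in ouabain. The 2 that were not always under the median were *Cd68*, higher than control by 0.94 in K+-free medium and 1.29 in ouabain, and *Cd14*, higher by 0.43 in K+-free medium and 1.27 in ouabain. Of 6 endothelial markers 3 were measured, without *Pecam1*, *Kdr* and *Vwf*. All 3 lay under the median, with *Cdh5* called higher in both treatments. The 5 fibroblast markers averaged 10.65 to 10.71 in K+-free, 10.37 to 10.42 in ouabain and 10.29 to 10.34 in control arrays. Of the fibroblast markers 2 were called higher in K+-free medium, and *Pdgfra* differed most, by 1.30 in K+-free medium and -0.06 in ouabain. The part of these shifts in the results that follow was not tested, and in such bulk RNA fewer cells of a type and less RNA per cell cannot be told apart.

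In K+-free medium 3 of the 8 tested genes were called, with *Il1r1* higher and *Casp12* and *Pycard* lower, against 33.9% of all probe sets in either direction, 16.1% higher and 17.9% lower. In ouabain the count was again 3 of 8, with 1 gene higher and 2 lower, and these were *Il1r1*, *Casp12* and *Pycard* once more. The background in ouabain was 32.5% of all probe sets, with 15.8% higher and 16.8% lower. Between K+-free medium and ouabain 1 of 8 was called, *Il1r1*, which was higher in K+-free medium, against 16.4% of all probe sets, 8.45% of them higher and 7.97% lower. Thus the share of called genes among these 8 was close to the background in each comparison. The list was drawn up with earlier results known and the count leaves out *Casp4*, so this describes the 8 genes and does not test the list. The median difference of the 8 genes was 0.02 in K+-free medium and 0.05 in ouabain on the log2 scale, beside 0.06 and 0.07 over all probe sets, and both comparisons rest on the same control arrays.

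**Figure D1:**
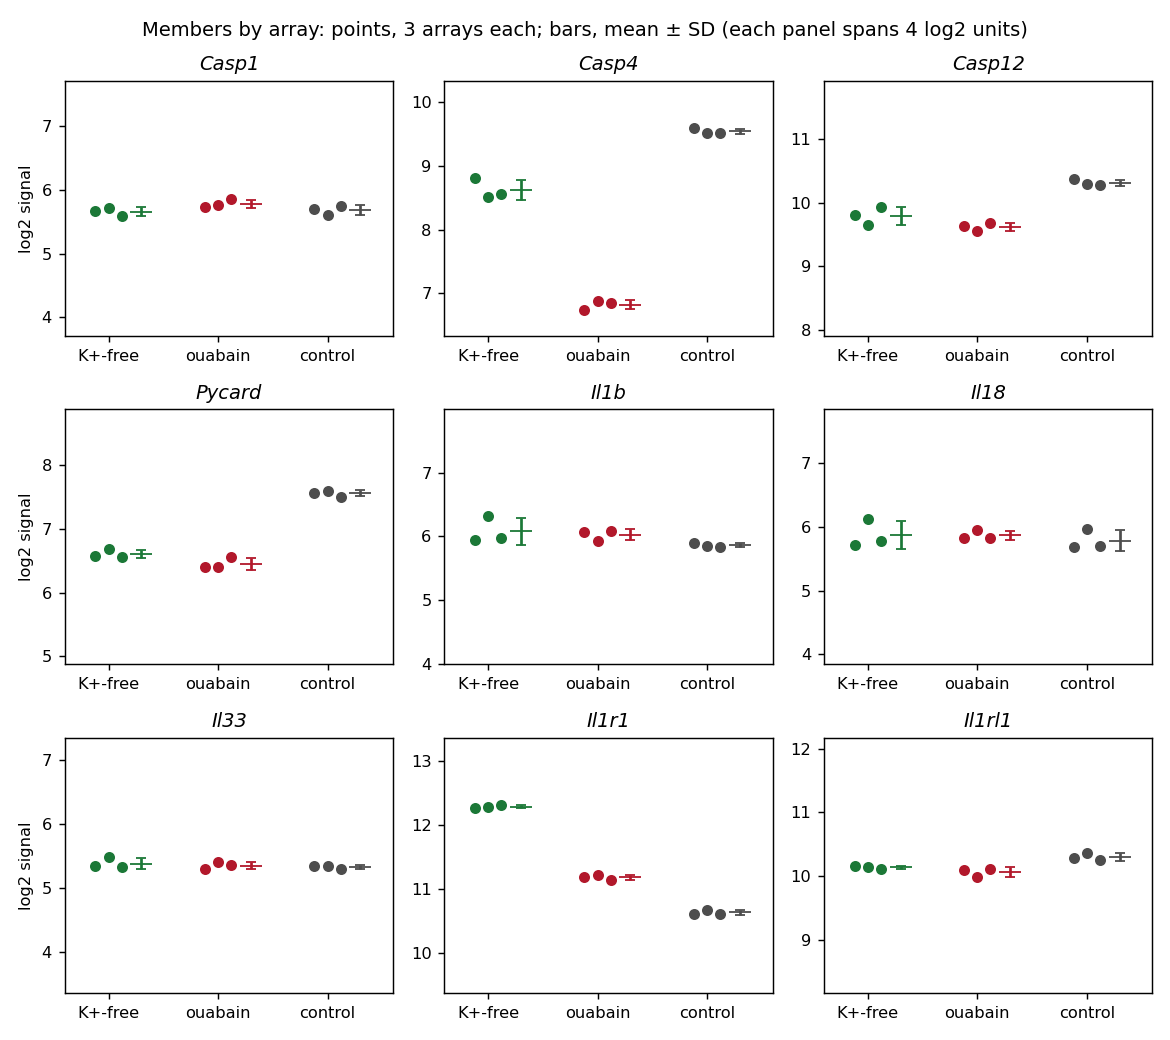
Log2 signal (y axis, each panel spanning 4 log2 units) of the 9 measured genes in K+-free, ouabain and control arrays; points are the 3 arrays of a condition and bars the mean ± SD. *Il1r1* is separated in all 3 conditions, *Casp12* and *Pycard* are lower in both treatments than in control, and the ligands lie close together.

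Among the caspases, *Casp1* was near the lower end of the signal range and did not pass the test. Its log2 signals were 5.67, 5.72 and 5.59 in K+-free medium, 5.72, 5.76 and 5.85 in ouabain, and 5.71, 5.60 and 5.74 in control. The treated arrays overlapped the control arrays, and every array was under the median of its probe sets. The log2 differences from control were -0.03 in K+-free medium (95% interval -0.16 to 0.11, adjusted p = 0.754) and 0.10 in ouabain (-0.04 to 0.23, adjusted p = 0.225). The K+-free arrays all lay below the ouabain arrays, yet that difference of -0.12 did not pass either (adjusted p = 0.214).

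*Casp4* had the widest separation between conditions of the 9 genes. Its log2 signals were 8.81, 8.51 and 8.56 in K+-free medium, 6.74, 6.89 and 6.84 in ouabain, and 9.59, 9.52 and 9.52 in control. No array of a condition overlapped those of another, with ouabain lowest, K+-free medium between and control highest. The mean in K+-free medium was 1.89-fold below control (log2 difference -0.92, SE 0.08, interval -1.09 to -0.75), and that in ouabain 6.58-fold below control (-2.72, interval -2.89 to -2.55). K+-free medium stood 3.49-fold above ouabain (1.80, interval 1.63 to 1.97). These values are given as a description, since *Casp4* was listed with them known.

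*Casp12*, which encodes a caspase linked to the endoplasmic reticulum in rodents, fell in both treatments. Log2 signals of *Casp12* were 9.80, 9.65 and 9.93 in K+-free medium, 9.63, 9.56 and 9.68 in ouabain, and 10.37, 10.29 and 10.28 in control. Every treated array was below every control array, whereas the K+-free and ouabain arrays overlapped. The fall was 1.43-fold in K+-free medium (log2 difference -0.52, SE 0.07, adjusted p = 0.000117) and 1.61-fold in ouabain (-0.69, SE 0.07, adjusted p = 1.27e-05). The K+-free minus ouabain difference of 0.17 (interval 0.01 to 0.33) did not pass (adjusted p = 0.135).

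*Pycard*, the gene of the adaptor ASC, fell in both treatments. Log2 signals of 6.58, 6.69 and 6.57 in K+-free medium and of 6.40, 6.40 and 6.56 in ouabain stood against 7.57, 7.60 and 7.51 in control. All 6 treated arrays, which were under the median of their array, lay below the 3 control arrays, which were above it. The mean was 1.93-fold lower in K+-free medium than in control (log2 difference -0.95, SE 0.06, adjusted p = 2.44e-07) and 2.15-fold lower in ouabain than in control (-1.11, SE 0.06, adjusted p = 9.09e-08). The K+-free arrays were all above the ouabain arrays, but by only 0.16 (interval 0.02 to 0.30, adjusted p = 0.0987).

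The ligand genes *Il1b*, *Il18* and *Il33* were dim, with all 9 arrays under the median for each, and none passed the test. *Il1b*, the precursor of IL-1β, had log2 signals of 5.94, 6.32 and 5.97 in K+-free medium, 6.07, 5.93 and 6.08 in ouabain, and 5.90, 5.86 and 5.84 in control. Its treated arrays were all above the control arrays, with 1 K+-free array (replicate 2) standing highest. The log2 differences from control were 0.21 in K+-free medium (interval 0.01 to 0.42, adjusted p = 0.0825) and 0.16 in ouabain (-0.04 to 0.37, adjusted p = 0.178), beside medians of 0.08 and 0.09 among the 13671 dimmer probe sets of the array. Without K+-free replicate 2, the highest array, the K+-free difference was 0.09 (adjusted p = 0.274), close to that median. Without K+-free replicate 1 it was 0.28 and passed (adjusted p = 0.0405), the lowest of 22 alternatives whose adjusted p reached 0.685.

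*Il18*, whose product also needs caspase-1 for release in active form, gave 5.71, 6.12 and 5.77 in K+-free medium, 5.83, 5.95 and 5.83 in ouabain, and 5.69, 5.97 and 5.70 in control. Replicate 2 was the highest array in each of the 3 conditions, and the groups overlapped. The differences from control were 0.08 in both K+-free medium (interval -0.16 to 0.32, adjusted p = 0.561) and ouabain (-0.16 to 0.33, adjusted p = 0.567).

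*Il33* encodes an alarmin of the IL-1 family that acts through ST2. Its log2 signals were 5.34, 5.48 and 5.33 in K+-free medium, 5.29, 5.40 and 5.35 in ouabain, and 5.34, 5.34 and 5.29 in control. The groups overlapped, and the intervals of the differences from control were -0.07 to 0.19 in K+-free medium (adjusted p = 0.435) and -0.10 to 0.15 in ouabain (adjusted p = 0.745). Between K+-free medium and ouabain the differences of *Il1b*, *Il18* and *Il33* were 0.05, 0.00038 and 0.03, and none passed (adjusted p = 0.809, 0.999 and 0.800).

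The receptor genes were above the median on all 9 arrays, and of these 2 genes *Il1r1* alone was called. *Il1r1*, the signaling receptor of IL-1α and IL-1β, had log2 signals of 12.27, 12.28 and 12.31 in K+-free medium, 11.19, 11.22 and 11.14 in ouabain, and 10.61, 10.67 and 10.61 in control. The conditions did not overlap, and the replicates of a condition differed by less than 0.1. *Il1r1* rose 3.16-fold in K+-free medium (log2 difference 1.66, SE 0.05, adjusted p = 8.49e-10) and 1.47-fold in ouabain (0.55, SE 0.05, adjusted p = 2.72e-06). The level in K+-free medium was 2.15-fold above that in ouabain (1.11, interval 1.00 to 1.21, adjusted p = 6.58e-08). Its order was thus K+-free, ouabain, control from high to low, whereas that of *Casp4* was ouabain, K+-free, control from low to high.

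*Il1rl1* encodes ST2, made as a membrane receptor and a soluble decoy, and the annotation ties its probe set to more than 1 transcript, which cannot be told apart here. Its log2 signals were 10.16, 10.14 and 10.12 in K+-free medium, 10.09, 9.98 and 10.12 in ouabain, and 10.28, 10.36 and 10.26 in control. All treated arrays lay under the control arrays. The differences of -0.16 in K+-free medium (adjusted p = 0.0371) and -0.24 in ouabain (adjusted p = 0.00509) passed the p threshold but stayed within the 1.2-fold limit, so that neither was called. Without ouabain replicate 3 the ouabain difference was -0.26 and was called (adjusted p = 0.00626, with a range of 0.000105 to 0.0370 over 22 alternatives). It was also called with each array centred on *B2m* (-0.39) or on reference genes (-0.31), and centring on *B2m* added the call in K+-free medium (-0.32), where the adjusted p ranged from 0.000463 to 0.133.

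**Figure D2:**
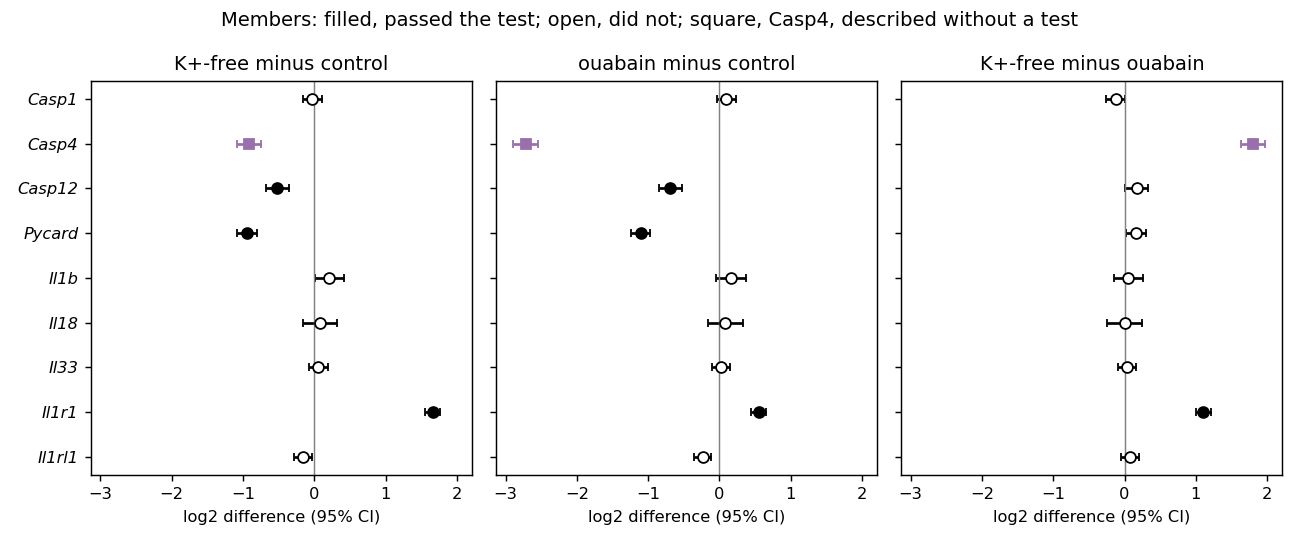
Log2 difference (x axis) with its 95% interval for the 9 genes, for K+-free minus control, ouabain minus control and K+-free minus ouabain, with 3 arrays in each group. Filled points passed the test, open points did not, and the square is *Casp4*, described without a test; *Il1r1* is the only filled point in the third panel.

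The chromosomal order of these genes places members with unlike behavior side by side. On rat chromosome 8 *Casp1*, *Casp4* and *Casp12* are consecutive protein-coding genes, between *Gria4*, a glutamate receptor subunit, and *Pdgfd*, a platelet-derived growth factor. *Gria4* differed from control by 0.01 in K+-free medium and 0.13 in ouabain and did not pass (adjusted p = 0.922 and 0.173). *Pdgfd* rose by 0.61 in K+-free medium (adjusted p = 2.86e-06), while its 0.22 in ouabain stayed within the fold limit (adjusted p = 0.00627). Hence *Casp4* and *Casp12*, both lower in treated cells, lie between *Casp1*, which did not pass the test, and *Pdgfd*, which was higher.

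On chromosome 9 the receptor genes *Il1r1*, *Il1rl2*, *Il1rl1* and *Il18r1* follow each other in that order. *Il18r1*, the IL-18-binding chain, had log2 signals of 7.64, 7.54 and 7.46 in K+-free medium, 6.59, 6.92 and 6.80 in ouabain, and 6.43, 6.37 and 6.20 in control. It rose by 1.21 in K+-free medium (adjusted p = 7.04e-07) and 0.44 in ouabain (adjusted p = 0.00226), with the same order of conditions as *Il1r1*. The ouabain call was lost with the methods' t-test after Benjamini-Hochberg adjustment (adjusted p = 0.0563, the highest of 22 alternatives that began at 0.000648). *Il1rl2*, the receptor of IL-36, lies between *Il1r1* and *Il1rl1* and gave 8.67, 8.60 and 8.64 in K+-free medium, 8.23, 8.24 and 8.20 in ouabain, and 8.68, 8.63 and 8.62 in control. Its ouabain arrays alone stood apart, with a fall of 0.42 on the log2 scale against control (adjusted p = 2.25e-05), and its K+-free minus control difference was -0.01 (adjusted p = 0.892). After repeated quantile normalization the ouabain difference was -0.21 and was no longer called.

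**Figure D3:**
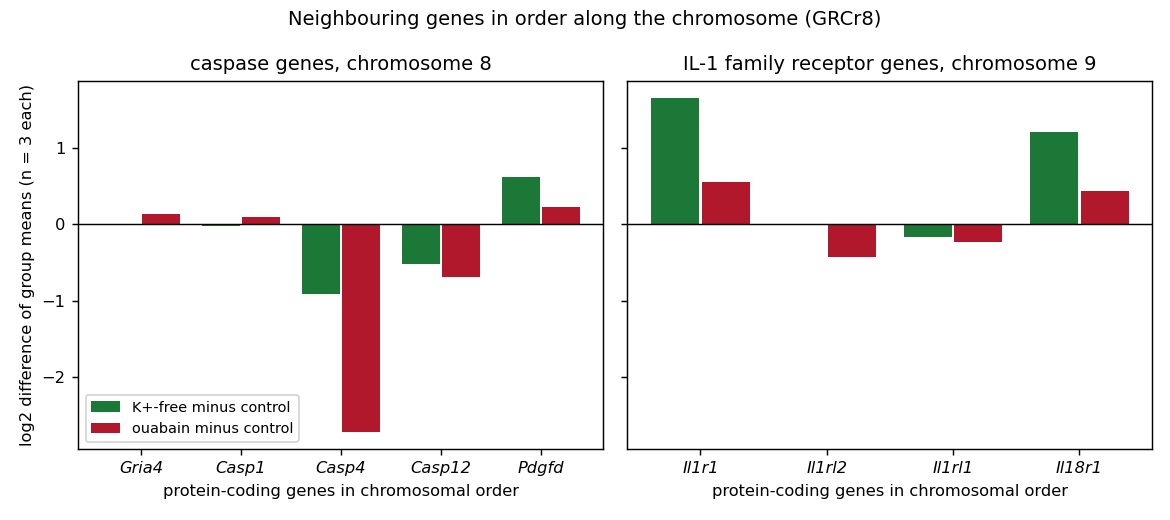
Log2 difference of group means (y axis, 3 arrays per group) from control in K+-free medium (green) and ouabain (red), for genes in their order along chromosome 8 (left) and chromosome 9 (right). On the left only *Casp4* and *Casp12* point clearly down, and on the right *Il1r1* and *Il18r1* point up with *Il1rl2* and *Il1rl1* between them.

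The rest of the pathway was described with 6 lists of other genes, 80 in all, of which 65 were measured. These lists were drawn up with earlier results of these data known, so their called shares are descriptive and not a test of the pathway. In K+-free medium 19 rose and 19 fell (38 called, 58.5% of the measured genes, beside 33.9% of all probe sets), and in ouabain 15 rose and 20 fell (35 called, 53.8%, beside 32.5%). Between K+-free medium and ouabain 20 were called (30.8%, beside 16.4%), 15 of them higher in K+-free medium. The measured genes of the lists all have a single-symbol probe set, so such probe sets are the closer background. Of these 15097 probe sets, fitted by themselves, 6192 were called in K+-free medium, 5965 in ouabain and 3234 between the treatments. Those shares are larger than the shares over all probe sets, so the excess of the lists is smaller beside them. Centring on *B2m* shifted all differences from control by -0.16 in K+-free medium and -0.15 in ouabain, which left 10 rises and 20 falls in K+-free medium, beside 10 rises and 21 falls in ouabain. Over all probe sets the deposited scale gave 4391 rises and 4890 falls in K+-free medium, and 4312 and 4583 in ouabain, whereas centring on *B2m* gave 2375 and 7059 in K+-free medium and 2166 and 6223 in ouabain. With reference genes the ouabain split was 2940 higher and 5240 lower. The counts per list below stand beside 16.1% of all probe sets higher and 17.9% lower in K+-free medium. In ouabain those shares were 15.8% and 16.8%, and between K+-free medium and ouabain 8.45% and 7.97%. The genes named below are those with the largest called differences of each list.

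Among 13 measured inflammasome sensors and regulators, of 21 listed, K+-free medium gave 2 rises and 3 falls, and ouabain 2 rises and 2 falls. *Txnip*, a thioredoxin inhibitor that binds NLRP3 in mouse cells, had log2 signals of 12.82, 12.77 and 12.72 in K+-free medium, 12.05, 12.04 and 11.98 in ouabain, and 10.88, 10.81 and 10.75 in control. It rose 3.88-fold in K+-free medium (adjusted p = 5.89e-10) and 2.31-fold in ouabain (adjusted p = 1.80e-08), again in the order of *Il1r1*. *Nlrx1*, a mitochondrial member of the NLR family, fell by 1.07 in K+-free medium and 1.19 in ouabain (adjusted p = 4.44e-06 and 2.03e-06). *Panx1*, a channel that releases ATP, moved apart in the treatments. Its mean was 7.08 in K+-free medium, 7.91 in ouabain and 7.66 in control, a fall of 0.57 in K+-free medium (adjusted p = 5.61e-05) and, in ouabain, a difference of 0.25 inside the fold limit. The K+-free minus ouabain difference of *Panx1* was -0.82 (adjusted p = 1.43e-05). On *B2m* the K+-free split of this list was 1 higher and 3 lower.

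In the list of gasdermins and pyroptosis, 3 of 8 genes rose and 2 fell in K+-free cells, while 2 rose and 2 fell in ouabain. *Gsdmd*, the gasdermin cut by caspase-1 and the lipopolysaccharide-sensing caspase, had mean log2 signals of 7.02 in K+-free medium, 7.27 in ouabain and 9.02 in control, and its treated arrays lay far below its control arrays. It fell 4.02-fold in K+-free medium (adjusted p = 8.20e-10) and 3.36-fold in ouabain (adjusted p = 3.60e-09), so both the substrate and the adaptor gene *Pycard* were lower in the same arrays. *Serpinb9*, an inhibitor of granzyme B, fell by 0.45 in K+-free medium and 0.66 in ouabain (adjusted p = 5.35e-05 and 2.74e-06). *Ninj1*, needed for membrane rupture in mouse macrophages, rose by 0.51 in K+-free medium (adjusted p = 0.000241), and its 0.24 in ouabain stayed within the fold limit. Its K+-free minus ouabain difference of 0.27 was called (adjusted p = 0.0283) but was lost without ouabain replicate 1 (0.26), ouabain replicate 3 (0.20), K+-free replicate 1 (0.23) or K+-free replicate 2 (0.28), with adjusted p from 0.00258 to 0.221 over 22 alternatives. The rises of this list depended on scaling, since 1 gene was higher in K+-free medium and 0 in ouabain on *B2m*, on reference genes and after quantile normalization, while 2 stayed lower in K+-free medium and 2 to 3 in ouabain. Between K+-free medium and ouabain 2 were higher and 0 lower, which became 2 and 1 on *B2m* and 1 and 1 after quantile normalization.

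Few of the other ligands and antagonists of the IL-1 family were called, with 0 of 8 higher and 1 lower in K+-free medium, while ouabain had 1 higher and 1 lower. *Il1rn*, the IL-1 receptor antagonist, had log2 signals of 6.17, 6.12 and 6.21 in K+-free medium, 5.86, 5.81 and 5.63 in ouabain, and 6.74, 6.98 and 6.55 in control. The conditions did not overlap, with falls of 1.51-fold in K+-free medium (adjusted p = 0.000471) and 1.99-fold in ouabain (adjusted p = 8.57e-06), where *Il1r1* rose. *Il1rn* was dim, however: apart from 6.98 in control, every signal lay under the lowest array median of 6.76. Its K+-free minus ouabain difference of 0.40 (adjusted p = 0.0133) became 0.33 without ouabain replicate 3 and then did not pass (adjusted p = 0.0548, the highest of 22 alternatives that began at 0.00399). *Il18bp*, the soluble binder of IL-18, rose by 0.27 in ouabain (adjusted p = 0.00856), just above the fold limit, with 0.24 in K+-free medium just inside it. That call was lost without ouabain replicate 1 (0.22), ouabain replicate 3 (0.26) or control replicate 1 (0.23), with adjusted p from 0.000772 to 0.187 over 22 alternatives, and 0 genes of the list were higher in ouabain on *B2m* or reference genes. After quantile normalization 1 was higher in K+-free medium.

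Of 8 other receptor genes of the family, 6 were measured. K+-free medium raised 3 and lowered 0, beside 16.1% and 17.9% of all probe sets, and ouabain raised 2 and lowered 1, beside 15.8% and 16.8%. This list too was drawn up with earlier results known, so the splits are descriptive. Beside *Il18r1* and *Il1rl2*, described above, *Il1rap*, the accessory chain that IL1R1 and ST2 share, rose by 0.37 in K+-free medium (adjusted p = 0.000599), and its 0.22 in ouabain was within the fold limit. The third gene, *Il1r2*, a decoy receptor named here after its values were seen, rose by 0.36 in K+-free medium (adjusted p = 0.0176) and 0.34 in ouabain (adjusted p = 0.0269). It was dim, with mean log2 signals of 5.88 in K+-free medium, 5.86 in ouabain and 5.52 in control. The dimmer probe sets of the array had median differences from control of 0.08 in K+-free medium and 0.09 in ouabain. On *B2m* the rise of *Il1rap* was 0.21, and neither *Il1rap* nor *Il1r2* was called any longer, which left *Il18r1* as the 1 receptor gene higher in K+-free medium. In ouabain the split was 1 higher and 1 lower on *B2m* and on reference genes, and 1 higher and 0 lower after quantile normalization.

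Signaling under the receptors was the largest list, with 22 of 24 genes measured. K+-free medium raised 9 and lowered 8 of them (6 and 9 on *B2m*), and ouabain raised 7 and lowered 8. *Map3k8*, a kinase upstream of ERK, had log2 signals of 8.89, 8.87 and 8.92 in K+-free medium, 7.07, 7.17 and 7.16 in ouabain, and 6.71, 6.71 and 6.68 in control. It rose 4.58-fold in K+-free medium (adjusted p = 1.84e-10) and 1.35-fold in ouabain (adjusted p = 2.48e-05). *Tab1*, an activator of the kinase TAK1, took the order of *Casp4*, with mean log2 signals of 8.96 in K+-free medium, 8.08 in ouabain and 9.78 in control. The log2 differences from control were -0.82 in K+-free medium (adjusted p = 4.41e-07) and -1.70 in ouabain (adjusted p = 4.01e-09). *Ecsit*, an adaptor of TRAF6 that also serves complex I assembly, fell by 1.83 in K+-free medium and 1.91 in ouabain (adjusted p = 5.86e-09 and 6.78e-09), and the difference of 0.08 between the treatments did not pass (interval -0.08 to 0.23, adjusted p = 0.566).

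Of 11 apoptotic and other caspases and their regulators, 8 were measured. K+-free medium raised 2 and lowered 5 (1 and 5 on *B2m*), beside 16.1% and 17.9% of all probe sets. Ouabain raised 1 and lowered 6 (0 and 6 on *B2m* and on reference genes), beside 15.8% and 16.8%. The list was drawn up with earlier results known, so these splits are descriptive. *Casp9*, the initiator caspase of the apoptosome, was 2.98-fold lower in K+-free medium and 2.82-fold lower in ouabain than in control (adjusted p = 4.54e-09 and 8.90e-09). *Casp6*, an effector caspase, fell by 1.46 in K+-free medium and 0.84 in ouabain on the log2 scale (adjusted p = 1.62e-07 and 1.59e-05). *Cflar*, the inhibitor of caspase-8 known as c-FLIP, gave 10.62, 10.51 and 10.65 in K+-free medium, 8.78, 8.70 and 8.71 in ouabain, and 9.94, 9.91 and 9.97 in control. It was thus 1.57-fold higher in K+-free medium (adjusted p = 1.66e-06) and 2.31-fold lower in ouabain (adjusted p = 2.00e-08) than in control, and both directions held on every scaling tried.

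**Figure D4:**
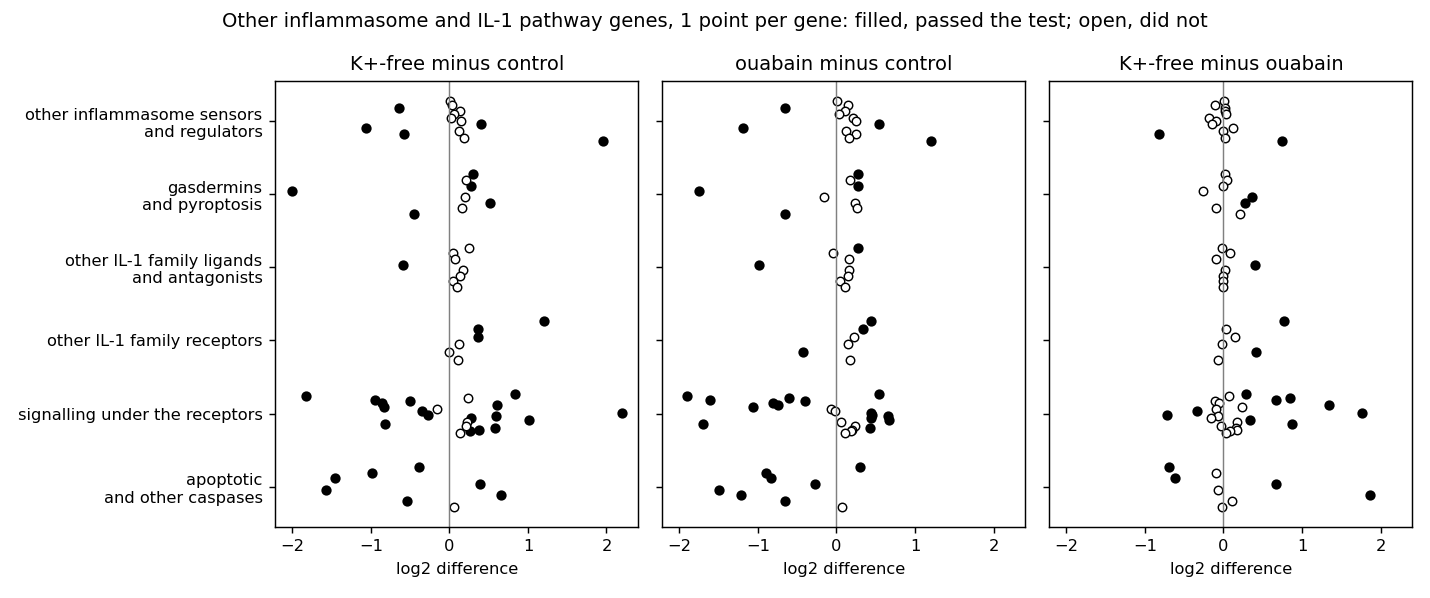
Log2 difference (x axis) of the 65 other measured pathway genes in 6 lists (rows), for K+-free minus control, ouabain minus control and K+-free minus ouabain; each point is a gene, filled where it passed the test. Called genes lie on both sides of 0 in the first 2 panels, and the third has 15 filled points to the right and 5 to the left.

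To describe which genes resembled the 3 most variable members, the log2 signals of 14323 other genes were centred on their mean over the 9 arrays and compared with each member by the root mean square distance. The nearest to *Casp4* were *Pdgfb*, a growth factor (distance 0.318), *Tlr3*, a receptor of double-stranded RNA (0.326), and *Xpnpep1*, an aminopeptidase (0.349). *Il1r1* had closer neighbors in *Vdr*, the vitamin D receptor (0.0911), *Egr3*, an early growth response factor (0.0937), and *Eepd1* (0.0942). For *Pycard* they were *Rpusd3* (0.0499), *Acox3*, a peroxisomal oxidase (0.0600), and *Borcs5* (0.0619). The distance was smallest for *Pycard* and largest for *Casp4*, whose own differences were also the largest. The points of each comparison are the same 9 arrays, and a small distance describes these arrays only.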

How the data were processed

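RNA of 9 RASMC cultures, 3 per condition by the sample labels, was hybridised to 1 array each. The authors deposited log2 values, which were analysed without further scaling. The submitters' processing notes name RMA and Partek without versions, whereas the methods name Partek in one place and MAS5 normalization with Genespring in another, so the normalization behind the deposited values rests on the submitters' notes. Precision is limited by the array number. Of the 27342 probe sets, 15097 have 1 gene symbol in the annotation, 323 have several and 11922 none, and 15067 were matched to RefSeq rat genes by identifier. Probe sets with several symbols were not named.

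A linear model with 1 mean for each medium was fitted to the 9 arrays together (limma 3.58.1, R version 4.3.3, tables read by data.table version 1.17.8), the variances were moderated by eBayes with 4.59 prior degrees of freedom, and two-sided p-values were adjusted by Benjamini-Hochberg over all probe sets. A call needed an adjusted p below 0.05 and a fold above 1.2. With 3 arrays against 3, no exact permutation test can reach a p under 0.1. The fit was tested on simulated data first. The members and gene lists were chosen with earlier results of these data known. Named pathway genes were up to 3 per list with the largest absolute difference among those called. The genes next to the members on the chromosome and the 3 most similar genes of the 3 members with the largest difference were also named.

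The results were recomputed after another quantile normalization, after centring each array on its median, on *B2m* or on 10 of 12 reference genes, without the dimmest 20% of probe sets, with single-symbol probe sets only, with a gene's probe sets averaged, with the replicate number as a block, with the arrays of a comparison fitted by themselves, with trended and robust moderation, by the methods' t-test, with other fold limits, and without each array in turn. Promoter sequences are from RefSeq (GRCr8). matplotlib 3.10.9 under Python 3.11.15 made the plots.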

Additional observations from a re-analysis of the deposited data

How the results depend on the processing

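The count of called genes among the 8 tested members stayed at 3, 3 and 1 for K+-free minus control, ouabain minus control and K+-free minus ouabain with the replicate block, where the counts over all probe sets were 9352, 8978 and 4587. The methods state that controls and treatments of an experiment were run in parallel, but no source ties the replicate numbers to the experiments. The numbers were not taken as pairs, since correlations of same-numbered arrays ranged from -0.05 to 0.31 and were not all above 0.1, although 7 of 9 arrays correlated best with their own number, a hint of pairing. Without 1 array at a time the members called were 3 to 4, 3 to 4 and 1, the pathway genes 35 to 39, 31 to 39 and 19 to 20, and all probe sets 8863 to 9525, 8435 to 9701 and 4291 to 4639. A fold limit of 1.5 left 2, 2 and 1 members, 20, 20 and 13 pathway genes and 4318, 3924 and 1149 probe sets. The member calls lost there were *Casp12* in K+-free medium (-0.52) and *Il1r1* in ouabain (0.55). The methods' t-test without adjustment called 3, 3 and 1 members, 37, 35 and 19 pathway genes and 8890, 8546 and 4334 probe sets. It used a p below 0.05 and a fold above 1.2. After Benjamini-Hochberg it called 3, 3 and 1 members, 37, 32 and 17 pathway genes and 8162, 7719 and 2896 probe sets. For the arrays the methods name a false discovery rate correction with an analysis of variance, so the unadjusted count is not their array criterion.

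Only differences that were not called turned in sign. For K+-free minus control, *Il18* became -0.0083 after quantile normalization and -0.076 on *B2m*, *Il33* -0.0043 and -0.10, and leaving out 1 array gave -0.066 to 0.010 for *Casp1* and -0.043 to 0.18 for *Il18*. For ouabain minus control, *Casp1* became -0.0046 after quantile normalization and -0.057 on *B2m*, *Il18* -0.021 and -0.070, and *Il33* -0.043 and -0.13, with -0.046 on reference genes for *Il33*. Between K+-free medium and ouabain *Il18* was -0.0015 on array medians and -0.0060 on *B2m*, and leaving out 1 array gave -0.071 to 0.12 for *Il1b*, -0.13 to 0.078 for *Il18* and -0.016 to 0.061 for *Il33*. The cause was not tested. The dim signals of *Casp1* and the ligands, and 3 arrays per condition, limit how small a difference could be called.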
